A study of Homo sapiens with 16 samples.

Results

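PNPase knockdown cultures of OCI-AML2 were followed from day 3 to day 6, and the later days were compared with day 3 within each replicate. OCI-AML2 is an established human acute myeloid leukaemia line. The samples were all 8 PNPase knockdown samples among the 16 samples of the series. They comprise days 4, 5 and 6 (6 samples) and day 3 (2 samples) of replicates 545 and 1717, which the series' design text calls biological. The other 8 samples are SUV3 knockdown cultures, replicates 1595 and 1727, on the same days. All cultures had been transduced with a short hairpin RNA construct against 1 of the 2 targets. The sources used here do not say what 545 and 1717 mean, so a construct and a replicate cannot be told apart. Control cells were not analysed here, so knockdown and time after transduction cannot be told apart either. No value of the targeted gene, PNPT1, was analysed here, and the knockdown was therefore not checked.

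PNPase, encoded by PNPT1, is a ribonuclease of mitochondria that degrades RNA together with the helicase SUV3. When mitochondrial double-stranded RNA is not degraded it can reach the cytosol, where sensors such as the protein of IFIH1 recognise it and start interferon and NF-kappaB signalling. NF-kappaB induces its own inhibitors as well as cytokines, so its targets can rise and fall within hours. Stressed cells can also induce genes that stop the cell cycle, such as CDKN1A, or that prepare the cell for death.

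Transcripts of 594 genes were measured on an immunology panel that counts fluorescent barcodes on probes. The deposited values are whole numbers whose totals ranged from 404694 to 493370 on days 4 to 6, against 397448 and 311396 on day 3. Each sample was divided by a factor from the 15 housekeeping genes of the panel. Its mean in log2 was -0.31 on day 3, 0.12 on day 4, 0.34 on day 5 and 0.46 on day 6. It thus moved with the days, and other scalings of the same values are given further on. By sample, on the log2 scale this factor ran from -0.021 to 0.51 on days 4 to 6 and was -0.10 and -0.51 on day 3. The spiked positive controls, which do not depend on the cells' RNA, gave factors from 0.020 to 0.21 on days 4 to 6 and of 0.13 and 0.29 on day 3. A gene was counted as above the negative control probes when its mean over the 8 samples exceeded 14.0, their mean plus 2 SD, which held for 346 genes. Of 12 myeloid markers on the panel 11 lay above this level, CD4, ITGAM (CD11b) and CEBPB among them. None of 9 T cell markers did, with summed deposited values of 39 to 58 on days 4 to 6 and 36 to 46 on day 3. Of 8 NK cell markers NCAM1 and PRF1 did, and 3 of 6 B cell markers. The B cell markers' summed deposited values were 84 to 99 on days 4 to 6 and 78 to 102 on day 3. After housekeeping scaling the sums were 67.4 to 91.3 on days 4 to 6 and 109.7 to 111.1 on day 3, without overlap, and their part in the changes was not tested.

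Changes are given as the mean of days 4, 5 and 6 minus day 3, on the scale of log2(housekeeping-scaled value + 1). In limma, with the replicate as a block, 54 of 594 genes passed an adjusted p of 0.05, 45 lower and 9 higher on the later days (9.09% of genes tested, 7.58% lower and 1.52% higher). Of the 346 genes above the negative controls 32 passed (9.25%), 24 lower (6.94%) and 8 higher (2.31%). The other 22 calls were 21 genes lower and 1 higher whose means lay at or below the level of the negative controls. At an unadjusted p below 0.05 there were 188 genes. The negative controls themselves, which are not tested genes, had a median change of -0.30 on this scale, and genes at or below their level had one of -0.44. The genes described in detail all lay above that level. In bulk samples, fewer cells with a transcript and less of it per cell cannot be told apart.

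**Figure D1:**
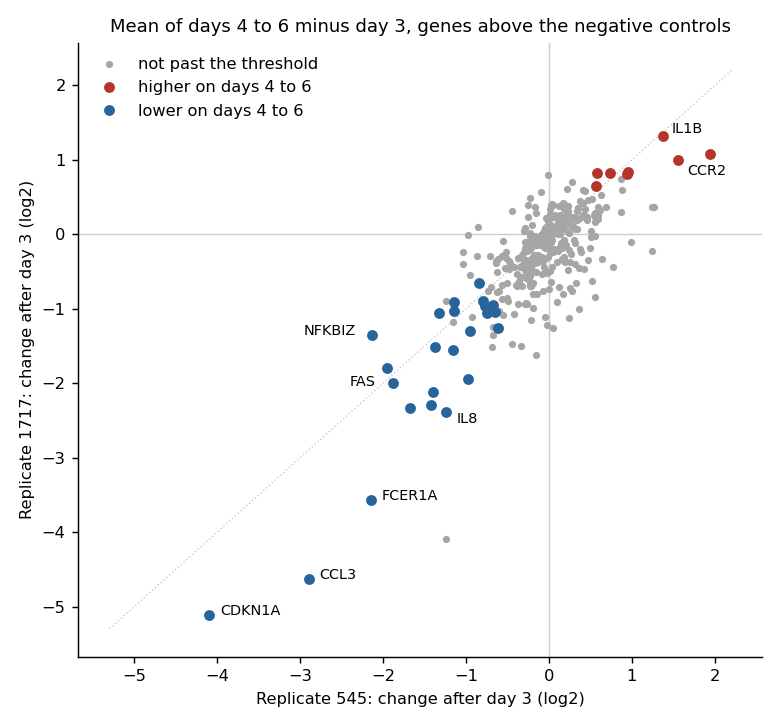
Change after day 3 in replicate 1717 (y axis) against that in replicate 545 (x axis), both as the mean of days 4 to 6 minus day 3 in log2 units, with 1 point for each of the 346 genes above the negative controls. The 24 genes called lower and the 8 called higher had the same sign in both replicates, and CDKN1A lies farthest from 0.

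CDKN1A, which encodes the cell cycle inhibitor p21, fell more than any other gene above the negative controls. Its scaled values on days 3, 4, 5 and 6 were 5077, 323, 269 and 299 in replicate 545 and 5128, 161, 88.2 and 227 in replicate 1717. Both replicates started at nearly the same level, and no later value came near it. The change was -4.60 ± 0.34 (SE), 24.3-fold lower on days 4 to 6 (limma adjusted p = 0.0189). FAS, a death receptor, and BAX, a pore-forming inducer of apoptosis, fell too. So did TNFRSF10C, a decoy receptor for the death ligand TRAIL. These 4 were the called members of the list of 16 apoptosis and survival genes, all of them above the negative controls, where 6.94% of all genes were called lower. The list's median change was -0.18 against -0.10 for all genes above the negative controls.

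FAS had scaled values of 60.2, 14.2, 16.1 and 16.5 on days 3 to 6 in replicate 545 and 64.1, 18.4, 11.7 and 16.8 in replicate 1717. The change was -1.94 ± 0.18 (SE) (limma adjusted p = 0.0206). All 6 later values lay below both day 3 values, close to the level of the negative controls and in 1 sample at or below it. With the negative controls subtracted FAS was at -2.45 and TNFRSF10C at -2.39, and neither passed (limma adjusted p = 0.0552 for FAS and 0.0953 for TNFRSF10C). TNFRSF10C changed by -1.88 ± 0.32 (SE) and BAX by -0.81 ± 0.12 (SE). BAX is an abundant transcript, with scaled values of 2736, 1757, 1589 and 1791 in replicate 545 and 3283, 1630.4, 1579 and 1905 in replicate 1717. Without scaling of the samples the change of BAX was -0.20 and did not pass, while CDKN1A, FAS and TNFRSF10C passed. Grouping these 4 genes was done with the values known, and no test was made of the group.

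**Figure D2:**
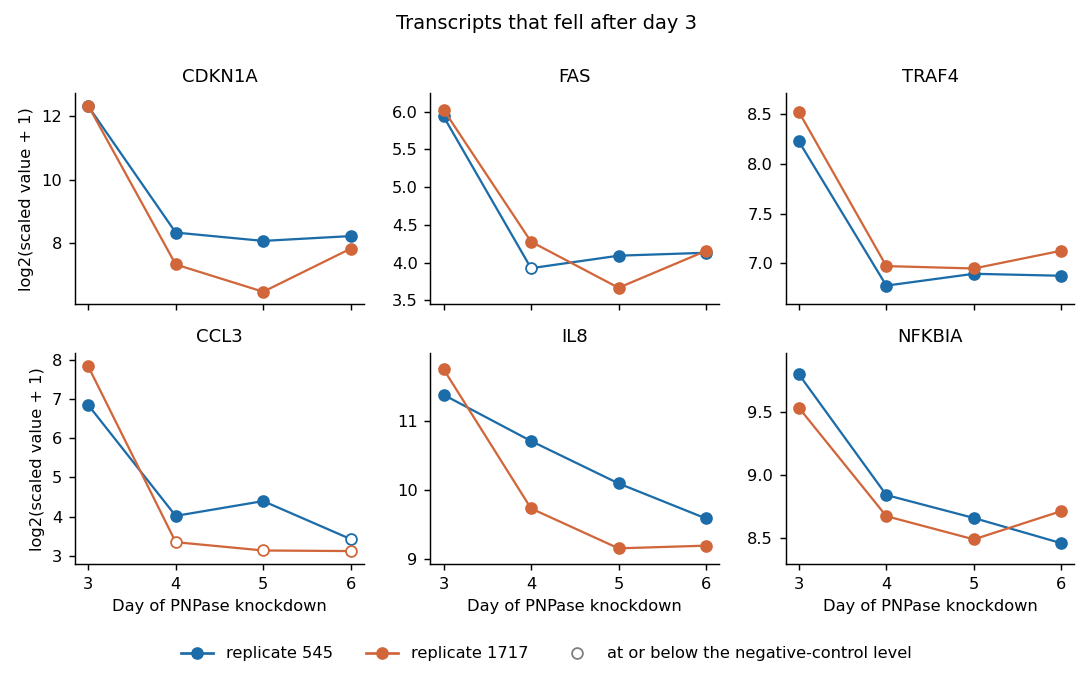
Scaled values, as log2(value + 1), on days 3 to 6 (x axis) of 6 transcripts that fell, in replicates 545 and 1717 (1 line each); open circles mark deposited values at or below the level of the negative controls. In each panel all later values lie below both day 3 values, and TRAF4 is nearly level from day 4 onwards.

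Some genes of the NF-kappaB pathway fell. Of 21 measured members of the NF-kappaB pathway list above the negative controls, 5 passed, all of them lower, against 6.94% of all genes above that level. They were NFKBIZ, which encodes a nuclear cofactor of NF-kappaB, NFKBIA, the inhibitor IkappaB-alpha, RELB, a subunit of the non-canonical pathway, BCL3, a nuclear IkappaB protein, and TRAF4, an adaptor of the TRAF family. The median change of the 21 was 0.067, and 8 of the 21 changes were below 0.

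NFKBIZ had scaled values of 115, 32.5, 24.1 and 21.0 on days 3 to 6 in replicate 545 and 92.6, 37.6, 32.0 and 37.2 in replicate 1717, a change of -1.75 ± 0.23 (SE) (limma adjusted p = 0.0301). NFKBIA had 889, 457, 402 and 349.9 in replicate 545 and 739, 406, 357 and 418 in replicate 1717, a change of -1.03 ± 0.15 (SE) (limma adjusted p = 0.0301). In both genes every later value was below both day 3 values. Before scaling, NFKBIA in replicate 1717 had deposited values of 519, 486, 458 and 596, of which the last exceeds that of day 3, so that its day 6 value was below that of day 3 only after scaling. TRAF4 was nearly level over days 4, 5 and 6, with 299, 109, 118 and 116 in replicate 545 and 368, 125, 123 and 139 in replicate 1717. Its change was -1.44 ± 0.11 (SE) (limma adjusted p = 0.0189). RELB changed by -0.87 ± 0.13 (SE) and BCL3 by -0.84 ± 0.14 (SE). Without scaling of the samples NFKBIZ and TRAF4 passed, at -1.15 and -0.83. NFKBIA, RELB and BCL3 did not, at -0.42, -0.26 and -0.25. With the spiked positive controls NFKBIZ passed at -1.06 (limma adjusted p = 0.0476). TRAF4 did not pass there, at -0.75 (limma adjusted p = 0.0679).

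The promoter windows of NFKBIA and NFKBIZ are shown because they were the only ones, among the genes that fell, with the kappaB letters searched, and that of IL8 because it fell with them. RefSeq's table for GRCh38.p14 gives 1 or more windows, each from 250 bases before to 50 after a transcript start, for 20 of the 24 genes that fell (29 windows) and 7 of the 8 that rose (10 windows). The search took in all 32 called genes, a wider set than planned and chosen after their values were seen. The kappaB letters searched were 3 G, any 2 bases, 3 T and 2 C. On either strand they were in 2 of the 29 windows and in 0 of the 10, against 1.91% of all 35116 windows in the table and 6.64% of 437 windows of panel genes above the negative controls. Both matches also hold the narrower form with A at both free bases, found in 0.145% of all windows and 1.14% of those of panel genes above the negative controls. They lay 81 bases before the start in NFKBIA (on the opposite strand) and 223 before it in NFKBIZ. The AP-1 letters TGANTCA were in 3 of the 29 windows, those of FAS, PRDM1 and IL8, and in 1 of the 10, that of CCR2, against 7.71% of all windows and 7.55% of the panel genes' windows. The CRE letters TGACGTCA were in the window of ARG2 alone. They are in 1.85% of all windows and 0.458% of the panel genes' windows. The interferon response letters (GAAA, any 2 bases, GAAA) were in a window of CFB and in 1 of POLR1B, against 3.57% of all windows and 8.01% of the panel genes' windows, and the EGR1 letters GCGTGGGCG in none of those searched, against 0.795% of all windows and 1.6% of the panel genes' windows. All letters were searched on both strands, and the narrower kappaB form lies within the wider. A match is a description of the letters and not of binding. The kappaB letters searched are narrow, and a window without them was not shown to lack other kappaB forms. The IL8 window holds TGGAATTTCC and that of NFKBIA also AGGACTTTCC, each 1 base off the letters searched and left unmarked. Capitals mark the matches, and the windows are NFKBIA at chr14:35404700-35404999 on the minus strand, NFKBIZ at chr3:101827740-101828039 on the plus strand and IL8 (now CXCL8) at chr4:73740319-73740618 on the plus strand.
NFKBIA: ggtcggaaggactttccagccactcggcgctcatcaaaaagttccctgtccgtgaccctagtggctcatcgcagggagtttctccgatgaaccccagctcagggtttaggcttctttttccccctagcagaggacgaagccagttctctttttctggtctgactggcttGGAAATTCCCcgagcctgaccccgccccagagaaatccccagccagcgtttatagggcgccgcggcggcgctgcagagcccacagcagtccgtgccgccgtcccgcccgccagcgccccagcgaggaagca
NFKBIZ: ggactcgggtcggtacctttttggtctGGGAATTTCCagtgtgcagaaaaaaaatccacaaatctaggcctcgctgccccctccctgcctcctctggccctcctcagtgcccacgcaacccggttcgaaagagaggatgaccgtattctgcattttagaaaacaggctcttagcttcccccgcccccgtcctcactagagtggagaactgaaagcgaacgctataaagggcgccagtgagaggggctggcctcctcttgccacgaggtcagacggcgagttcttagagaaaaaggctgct
IL8: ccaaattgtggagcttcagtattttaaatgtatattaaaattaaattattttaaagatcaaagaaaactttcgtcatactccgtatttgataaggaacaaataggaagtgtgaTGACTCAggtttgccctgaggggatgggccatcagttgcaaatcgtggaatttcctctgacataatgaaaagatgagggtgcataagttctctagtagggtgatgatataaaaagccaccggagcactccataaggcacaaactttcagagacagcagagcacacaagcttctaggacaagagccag

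Secreted mediators and other genes that activated myeloid cells induce early moved in both directions. Of 20 measured immediate early and activation-induced genes above the negative controls, 7 fell and 2 rose, against 6.94% lower and 2.31% higher of all genes above that level. CCL3, a chemokine for monocytes, had scaled values of 114, 15.2, 20.1 and 9.76 on days 3 to 6 in replicate 545 and 227, 9.20, 7.80 and 7.71 in replicate 1717. The change was -3.76 ± 0.44 (SE) (limma adjusted p = 0.0296), and 4 of the 6 later deposited values were at or below the level of the negative controls. The related CCL4 changed by -2.67 ± 0.70 (SE) and did not pass (limma adjusted p = 0.0779, and 0.0444 with only genes above the negative controls in the fit), with -1.24 in replicate 545 and -4.09 in replicate 1717. IL8, the neutrophil chemokine CXCL8, was far more abundant, with 2661, 1674, 1095 and 770.4 in replicate 545 and 3439, 852, 571 and 587 in replicate 1717. It changed by -1.81 ± 0.30 (SE) (limma adjusted p = 0.0365) and was lower on each day than on the day before in replicate 545, but not on day 6 in replicate 1717.

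PTGS2, the inducible cyclooxygenase, fell by 3.37-fold, and PTGER4, a receptor for the prostaglandin E2 made from its product, by 2.56-fold. PTGS2 had scaled values of 89.3, 36.5, 35.3 and 28.5 in replicate 545 and 128, 36.0, 20.3 and 33.0 in replicate 1717. CD83, a surface protein of maturing dendritic cells, changed by -1.19 ± 0.12 (SE) (limma adjusted p = 0.0206). With CCL3, IL8, PTGS2, NFKBIZ, NFKBIA and BCL3 it completes the 7. EGR1 and MCL1, from the same list, did not pass, though MCL1 did with only genes above the negative controls in the fit (limma adjusted p = 0.0302). EGR1 had scaled values of 66.7, 91.3, 61.8 and 49.6 in replicate 545 and 79.8, 44.3, 33.6 and 25.9 in replicate 1717, so that the replicates went different ways on day 4. IL18, a cytokine released after inflammasome activation, changed by -0.85 ± 0.14 (SE) and fell, while its relative IL1B rose.

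Among the genes that fell outside these sets, FCER1A, a chain of the IgE receptor, was the only one called in the list of 29 myeloid surface receptors and effectors above the negative controls. It changed by -2.85 ± 0.35 (SE) (limma adjusted p = 0.0296), with deposited values of 45, 13, 11 and 12 on days 3 to 6 in replicate 545 and 89, 17, 12 and 10 in replicate 1717. Of the 6 later values 5 were at or below the level of the negative controls, and their mean of 12.5, against 67.0 on day 3, was below it too. FCER1A was thus counted as above that level through day 3 alone, and the size of its fall depends on the background: it was -2.15 with a pseudocount of 10 and -3.94, not passing, with the negative controls subtracted. IL21R, a cytokine receptor chain, changed by -2.01 ± 0.24 (SE), with 2 later values at or below that level. PRDM1, which encodes the transcriptional repressor BLIMP-1, changed by -1.86 ± 0.25 (SE), and CD70, the ligand of CD27 on T cells, by -1.46 ± 0.29 (SE). PRDM1 had scaled values of 89.3, 31.5, 37.7 and 29.3 in replicate 545 and 128, 20.9, 26.5 and 29.4 in replicate 1717, with no overlap between the later days and day 3. The remaining 5 that fell were CFB, a complement factor, NFIL3, a transcription factor, BLNK, an adaptor of B cell signalling, MUC1, a mucin, and ARG2, the mitochondrial arginase, with changes from -1.12 to -0.75. Of the genes described, CCL4, CD83, PTGER4, MUC1, NFIL3, ARG2, CD74 and MCL1 lay outside the naming rule and were picked with their values known. Of the 24 genes that fell, 23 had all later values below both day 3 values, which held for 20.8% of genes above the negative controls and 22.1% of all genes. The 24 were called on these same values, so the count describes them and tests nothing.

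The 8 genes that rose included CCR2 and the cytokines IL1B and TNF. CCR2, the receptor for the monocyte chemokine CCL2, rose by 1.28 ± 0.21 (SE) (limma adjusted p = 0.0365). CCR2 had scaled values of 162, 464, 438 and 548 on days 3 to 6 in replicate 545 and 201, 463, 410.5 and 339 in replicate 1717. Every later value exceeded both day 3 values. CCR1, a receptor for CCL3, changed by 0.80 ± 0.24 (SE) and did not pass (limma adjusted p = 0.0958), with 1.24 in replicate 545 and 0.36 in replicate 1717.

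IL1B, an inflammatory cytokine, had scaled values of 51.6, 196, 120.4 and 105 in replicate 545 and 41.3, 128, 109 and 81.3 in replicate 1717. It was 2.54 times its day 3 level on days 4 to 6, a change of 1.35 ± 0.13 (SE) (limma adjusted p = 0.0206). TNF, the tumour necrosis factor, had 507, 1256, 752 and 632 in replicate 545 and 557, 1421, 942 and 719 in replicate 1717, a change of 0.78 ± 0.11 (SE) (limma adjusted p = 0.0301). Both were highest on day 4 and lower on each following day in both replicates. Against day 3, IL1B was higher by 1.76, 1.29 and 0.99 on days 4, 5 and 6, and TNF by 1.33, 0.66 and 0.34, of which the last 2 did not pass on their own.

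IKZF1, which encodes the haematopoietic transcription factor IKAROS, changed by 0.88 ± 0.12 (SE) (limma adjusted p = 0.0301). Its scaled values were 163, 342, 275 and 334 in replicate 545 and 299, 605, 485 and 491 in replicate 1717, where the later days and day 3 overlap across replicates but not within either. GFI1, another such factor, changed by 0.58 ± 0.12 (SE) and did not pass (limma adjusted p = 0.0512, and 0.0175 with only genes above the negative controls in the fit). CD3EAP and POLR1B, subunits of RNA polymerase I, which transcribes ribosomal RNA, changed by 0.90 ± 0.13 (SE) and 0.61 ± 0.12 (SE). CD3EAP had scaled values of 132, 258, 249 and 267 in replicate 545 and 171, 297, 344 and 279.8 in replicate 1717. POLR1B is 1 of the 15 housekeeping genes used for the scaling, and those 15 changed by between -0.39 (PPIA) and 0.61 (POLR1B). ICOSLG, a costimulatory ligand for T cells, had 22.6, 47.7, 28.9 and 29.3 in replicate 545 and 18.5, 41.0, 30.4 and 30.1 in replicate 1717, a change of 0.70 ± 0.13 (SE), with its highest value on day 4 in both. As deposited, its day 3 value in replicate 1717 lay at or below the level of the negative controls. The size of its rise depends on the background: 0.53 with a pseudocount of 10 and 1.10, not passing, with the negative controls subtracted. Of the 8 genes that rose, 7 had all later values above both day 3 values, which held for 9.25% of genes above the negative controls and 5.56% of all genes. The 8 were called on these same values, so this count too tests nothing.

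**Figure D3:**
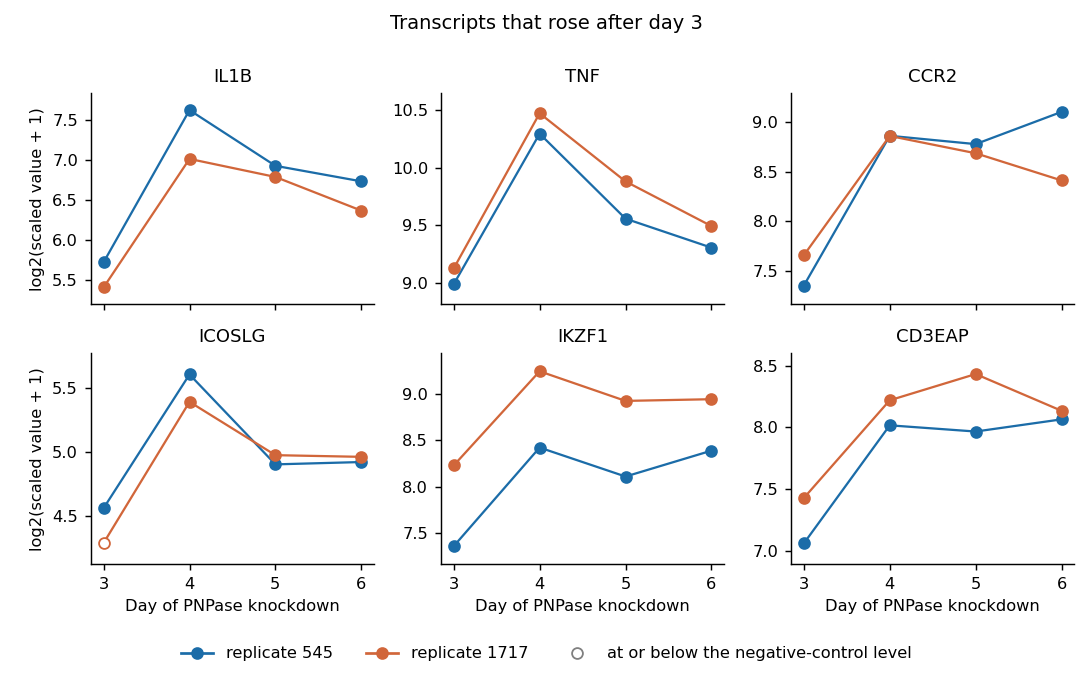
Scaled values, as log2(value + 1), on days 3 to 6 (x axis) of 6 transcripts that rose, in replicates 545 and 1717 (1 line each); the open circle marks a deposited value at or below the level of the negative controls. TNF, IL1B, ICOSLG and IKZF1 are highest on day 4 in both replicates, and all 6 transcripts stay above the day 3 level of the same replicate to day 6.

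The called genes were next described by day. The median change of the 24 genes that fell was -1.32 on day 4, -1.40 on day 5 and -1.38 on day 6, and that of the 8 that rose was 1.20, 0.84 and 0.86. The genes were chosen on the mean of these days, so these medians describe them and test nothing. From day 4 to day 6, 12 of the 24 went further down in both replicates and 3 went up in both, while 5 of the 8 that had risen went down in both. Such counts were not made over all genes above the negative controls, so these have nothing to be set against. Each replicate also had a higher housekeeping factor, in log2, on day 6 (0.41 for 545, 0.51 for 1717) than on day 4 (-0.021 and 0.26). A higher factor lowers the scaled values, and its part in these counts was not tested. Tested alone over all 594 genes, day 4 had 6 calls (1.01%), 4 lower (0.673%) and 2 higher (0.337%). Day 5 had 18 (3.03%), 17 lower (2.86%) and 1 higher (0.168%). Day 6 had 33 (5.56%), 31 lower (5.22%) and 2 higher (0.337%). Above the negative controls, day 4 gave 5 calls (1.45%), with CDKN1A, FAS and TRAF4 lower (0.867%) and IL1B and TNF higher (0.578%). Day 5 gave 10 (2.89%), 9 lower (2.6%) and IL1B higher (0.289%). Day 6 gave 20 (5.78%), 18 lower (5.2%) and IL1B and IKZF1 higher (0.578%). The split turned with the scaling. Without scaling it was 8 lower and 12 higher on day 4, 4 and 7 on day 5, and 8 and 22 on day 6. With the spiked controls it was 7 lower and 10 higher on day 4, 7 and 47 on day 5, and 8 and 20 on day 6. With the panel median day 6 had 0 calls in limma (144 at an unadjusted p below 0.05). These 3 comparisons share the day 3 samples. Of the 24 genes that fell, 18 fell further in replicate 1717 than in replicate 545. Over all 346 genes above the negative controls 218 (63%) had the lower change in replicate 1717, with a median of -0.18 there and -0.037 in replicate 545.

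Interferon-stimulated genes had no call among 16 measured members above the negative controls, with a median change of -0.15 against -0.10 for all genes above that level. IFIH1, the sensor of double-stranded RNA, had scaled values of 63.4, 36.5, 30.5 and 25.5 in replicate 545 and 44.2, 40.1, 26.5 and 34.4 in replicate 1717, and its change of -0.72 ± 0.21 (SE) did not pass (limma adjusted p = 0.0956). MX1, an antiviral GTPase, changed by -0.17 ± 0.19 (SE) and IRF7, which switches on interferon genes, by -0.42 ± 0.19 (SE). Neither passed, and both signs turned without scaling of the samples. Double-stranded RNA sensing had no call among 8 members, and JAK-STAT signalling none among 23. MHC class I presentation had none among 14, where 10 changes were below 0. HLA-C, a classical class I chain, changed by -0.43 ± 0.13 (SE). TAP1, a subunit of the peptide transporter, changed by -0.52 ± 0.13 (SE), and neither passed over all genes. With only genes above the negative controls in the fit both did (limma adjusted p = 0.0495 for HLA-C and 0.0296 for TAP1). Both signs turned without scaling of the samples.

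MHC class II presentation had no call either, although all 8 members above the negative controls had changes below 0, with a median of -0.55. Without scaling of the samples that median was 0.049. The median over all genes also turned, at 0.34 without scaling against -0.23 with it, and the direction of a list's median rests on that choice. CD74, the invariant chain, had scaled values of 1106, 941, 819 and 902 in replicate 545 and 1201, 898, 642 and 711 in replicate 1717, and its change of -0.51 ± 0.15 (SE) did not pass (limma adjusted p = 0.0950, and 0.0444 with only genes above the negative controls in the fit). HLA-DRA changed by -0.96 ± 0.28 (SE). IL32, the cytokine with the highest values on the panel, changed by -0.75 ± 0.19 (SE) and did not pass (limma adjusted p = 0.0763, and 0.0353 with only genes above the negative controls). The cyclin CCND3 changed by 0.18 ± 0.11 (SE), and the monocyte marker CD14 by 0.27 ± 0.33 (SE), with replicate 545 at 0.56 and replicate 1717 at -0.020. Adhesion molecules and integrins had no call among 19 members above the negative controls, TGF-beta signalling none among 7 and autophagy none among 5. The 12 complement genes above that level had 1 call, CFB, and the 6 B cell markers 1, BLNK. The 2 T and NK cell markers had none. Among 20 cytokines and chemokines CCL3, IL8 and IL18 were called lower and IL1B and TNF higher. Among 20 haematopoietic transcription factors PRDM1 was called lower and IKZF1 higher, and among 10 ligands and receptors of T and NK cells CD70 was called lower and ICOSLG higher.

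**Figure D4:**
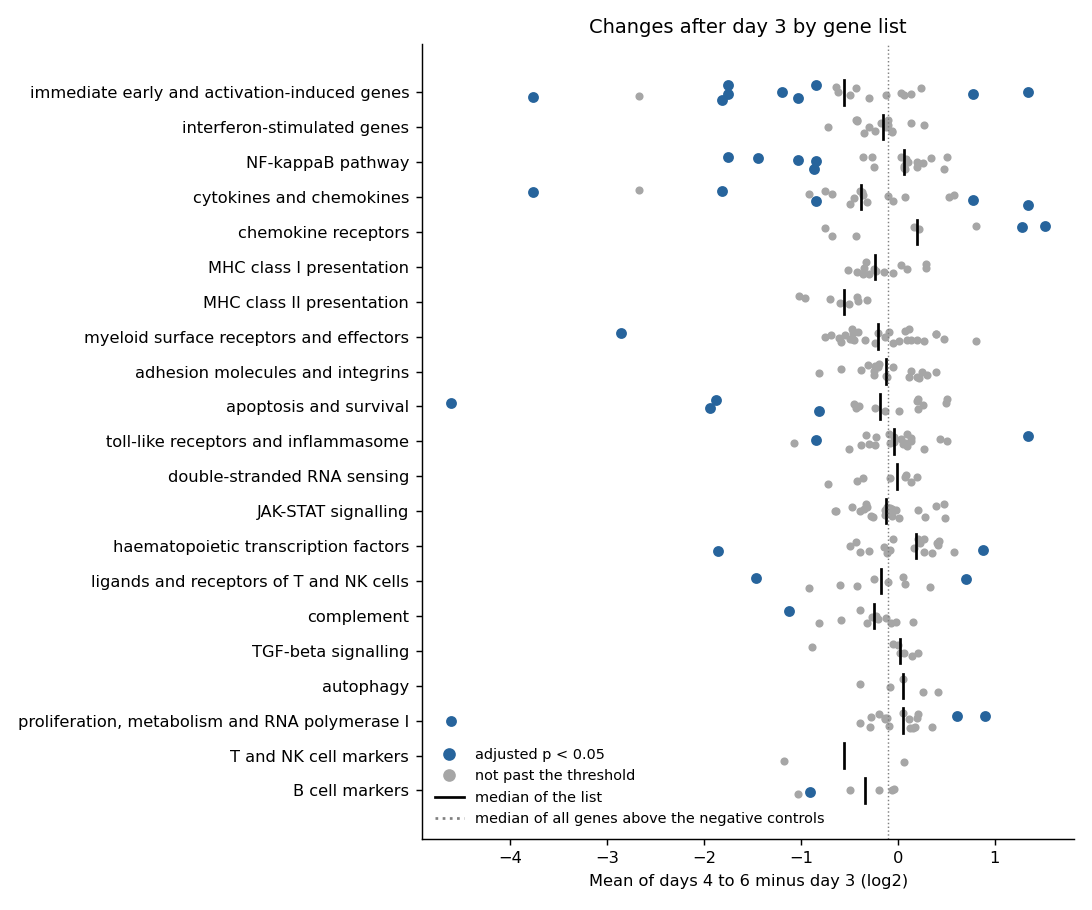
Change after day 3 (x axis, mean of days 4 to 6 minus day 3 in log2 units) of each list member above the negative controls, by gene list (y axis); blue points passed an adjusted p of 0.05, black bars are list medians and the dotted line is the median of all genes above the negative controls, -0.10. The 4 calls in the apoptosis list and the 5 in the NF-kappaB list lie to the left of their list medians of -0.18 and 0.067, and the activation list has calls on both sides of its median of -0.56.

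The same contrast was set beside SUV3 knockdown in 1 limma fit over all 16 samples. All 32 genes had a change of the same sign after SUV3 knockdown, and 16 of them passed there (5.39% of all genes passed in that contrast). For PNPase knockdown itself this fit called 25 of the 32, 19 lower and 6 higher. TNF was not among the 25 (limma adjusted p = 0.0789). The share of all genes with the same sign in both knockdowns was not counted, so the 32 have nothing to be set against. In log2 the housekeeping factor also rose after SUV3 knockdown, from -0.50 on day 3 to -0.0069 on day 6 in replicate 1595. In replicate 1727 it rose from -0.27 to 0.10. Its part in the shared signs was not tested. CDKN1A changed by -3.89 ± 0.32 (SE) after SUV3 knockdown (limma adjusted p = 0.000937), PNPase minus SUV3 -0.72 (95% interval -1.77 to 0.33). TRAF4 changed by -1.42 ± 0.12 (SE) there, with a difference of -0.027 (95% interval -0.43 to 0.38). For CCL3 the difference was -1.61 (95% interval -2.92 to -0.31), which did not pass over all genes (limma adjusted p = 0.587). For TNF, which changed by 0.077 after SUV3 knockdown, the difference was 0.70 (95% interval -0.039 to 1.44). Limma called 0 of 594 genes for a difference between the knockdowns (0%), with 43 at an unadjusted p below 0.05 and a smallest adjusted p of 0.281. The intervals leave room for differences in size, so the changes were not shown to be particular to PNPase knockdown, nor to be alike.

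How far each call held depended on the scaling and on the small number of samples. The 32 genes kept their sign under the other scalings, a pseudocount of 10, subtraction of the negative controls and with each replicate or later day left out. With 1 replicate left out, the change is that of the other replicate alone. The calls rest on these same values, so kept signs there, or with a day left out, are no separate check. Under all 4 scalings (housekeeping genes, panel median, none, spiked positive controls) 10 of the 24 that fell and all 8 that rose passed. The 10 were CDKN1A, CCL3, FCER1A, IL21R, FAS, TNFRSF10C, PRDM1, IL8, PTGS2 and NFKBIZ. The other scalings all moved changes upwards. The median over all genes went from -0.23 to -0.11 (panel median), 0.34 (none) and 0.41 (spiked positive controls). They therefore shrink falls and enlarge rises, so that the 8 kept their sign and passed there is hardly a check on them. With the negative controls subtracted, 5 of the 24 and 5 of the 8 passed. Of the 10 only CDKN1A passed there (limma adjusted p = 0.0279). The others of the 10 had limma adjusted p from 0.0533 (FCER1A) to 0.0953 (TNFRSF10C). Among the genes that rose, CCR2 and ICOSLG were not called there (limma adjusted p = 0.0634 for each). The split of all calls turned with the scaling, which gave 14 lower and 61 higher without it, against 45 lower and 9 higher with it. With 1 difference per replicate as the only replication (2 values per gene), 0 genes passed in limma, and 114 had an unadjusted p below 0.05. With days 5 or 6 left out 0 passed (133 and 147 at an unadjusted p below 0.05), and 22 passed without day 4. Within replicate 1717 alone 3 genes passed, CCL3, IL21R and CD8A (named after its values were seen, with a mean deposited value of 2.25), and within replicate 545 alone 1, CDKN1A.

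**Figure D5:**
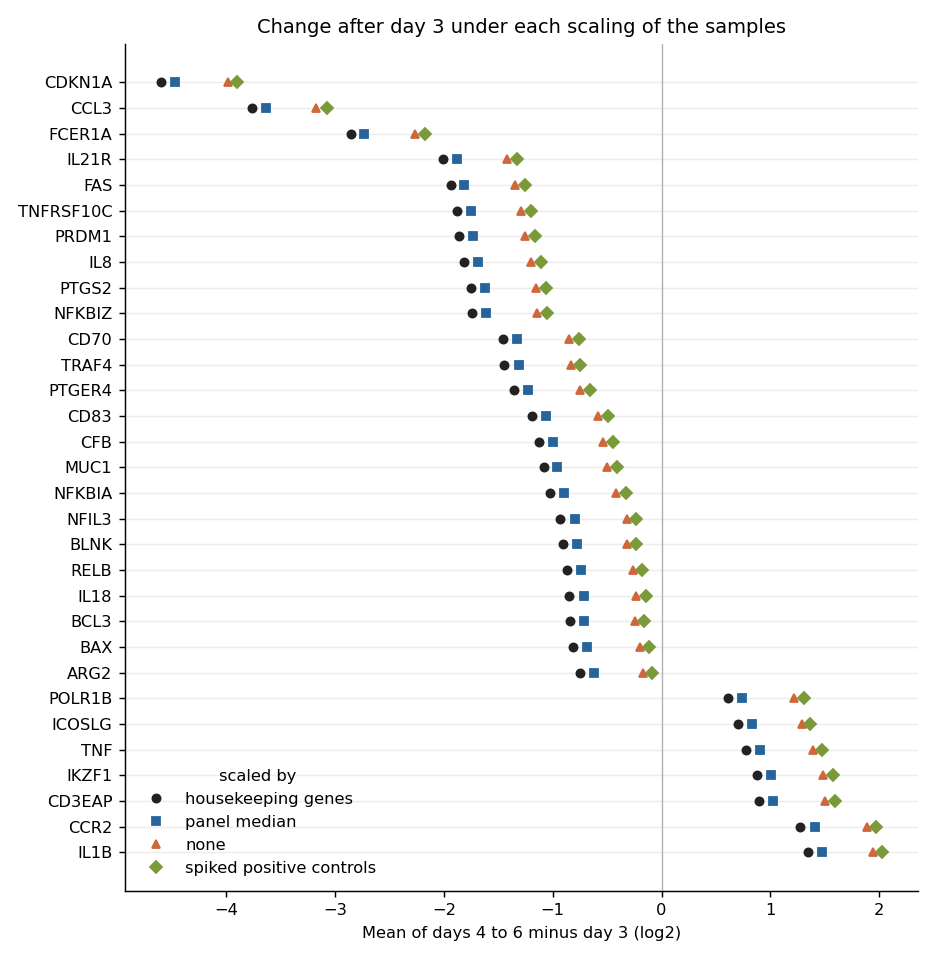
Change after day 3 (x axis, log2) of 31 of the called genes above the negative controls (y axis) under 4 scalings of the samples. No gene changes side, and the falls of the 11 genes listed from CD83 to ARG2 shrink to between -0.58 and -0.086 without scaling or with the spiked controls.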

How the data were processed

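Per the labels' protocols, total RNA of 16 samples was hybridised to the nCounter Immunology v2 probes. The deposited values are a score: whole numbers that the table's name calls corrected for unwanted variation, by steps not given in the sources used here. A second deposited table held identical values for all 594 genes. A scaling factor per sample, the mean log2 value of 15 housekeeping genes set to average 0 across samples, was removed before adding a pseudocount of 1 and taking log2. That pseudocount makes changes of weak genes appear smaller.

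Limma 3.58.1 (lmFit, eBayes) in R 4.3.3 fitted all 594 genes in the 8 PNPase samples with the replicate as a block and day as a factor (3 residual degrees of freedom), adjusted by Benjamini-Hochberg and read at 0.05. The pairing comes from the design text, which says that each replicate was sampled on every day. Across genes, the replicates' deviations on 1 day correlated with those on another at 0.041 to 0.67. With the level of each replicate removed, the p-values measure how the 2 replicates deviate from each other day by day. Days of 1 replicate are treated as independent. The fit was also run on simulated data with independent noise, no difference between replicates and no change in the housekeeping genes. The simulation does not check the fit where these do not hold. The members, lists and rules were chosen with earlier results of these data known. Named were the called genes with the largest falls and rises (at most 12 each), up to 4 members per list and 9 genes always considered; some are not reported here. The 8 samples' totals, from 311396 to 493370, and the negative controls, 7.23 ± 3.39 (SD) on average, limit the precision for weak genes. Of the symbols, 565 were current in RefSeq's gene table and 9 matched as older synonyms. Alternatives changed the scaling, pseudocount, background, filter, block, day term and samples.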

Additional observations from a re-analysis of the deposited data

Results flagged for a closer look

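IL21R in replicate 545 on day 5 lay apart from the other later samples. Its log2(scaled value + 1) was 3.17, against a next lowest value of 3.77, on a deposited value of 10 that is below the level of the negative controls. This was the only such value among 46 genes examined over their 6 later samples. Chance alone flags about 1 such group in 20, so 1 flag among 46 is no more than chance gives.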

How the results depend on the processing

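All 32 genes called above the negative controls kept their direction under the alternatives that change the estimate (scaling, pseudocount, subtraction, and each replicate or later day left out). Leaving out a replicate or day reuses values that the calls rest on, so kept direction there is no separate check. The other scalings moved changes upwards, so they could turn falls but not rises. The alternatives of block, day term, filter, replicate differences and all 16 samples leave the estimate as it is and change the calls alone. The count of 54 genes called moved to 89 with scaling by the spiked positive controls (13 lower and 76 higher), 108 with a pseudocount of 10, 21 with the negative controls subtracted, 21 with no replicate block, 0 from replicate differences, 22 without day 4 and 0 without day 5 or day 6. It ranged from 1 to 3 when 1 replicate was left out, where the spread comes from the 3 later days alone and the lone day 3 sample is assumed to vary like them. It was 75 without scaling, 43 with the panel median, 81 over genes above the negative controls only, 61 with 1 term for days 4 to 6 and 45 with all 16 samples. Of the 32 genes, 19 still passed without scaling, 14 with no replicate block and 10 with the negative controls subtracted. The median change over all genes, -0.23, was 0.34 without scaling and 0.41 with the spiked controls.

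Against day 3, day 4 alone had 6 calls, day 5 had 18 and day 6 had 33. For day 4 these became 20 without scaling, 17 with the spiked controls, 36 with a pseudocount of 10, 13 with the negative controls subtracted, 36 over genes above them only, 0 with no replicate block (81 at an unadjusted p below 0.05) and 21 with all 16 samples. For day 5 they became 11 without scaling, 54 with the spiked controls, 4 with the panel median, 58 with a pseudocount of 10, 48 over genes above the negative controls only, 6 with no replicate block and 30 with all 16 samples. For day 6 they became 0 with the panel median (144 at an unadjusted p below 0.05), 8 with the negative controls subtracted and 7 with no replicate block. The difference between knockdowns had 3 calls with the negative controls subtracted, IL17A, IL2 and KIR3DL1, and 1 without replicate 1727, IL1A, all with mean deposited values below the level of the negative controls; leaving out each replicate in turn gave 0 to 1.

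Of the named genes that did not pass, these signs turned without scaling and with the spiked controls: IRF7 (0.18 and 0.27), MX1 (0.43 and 0.51), HLA-C (0.19 and 0.28), TAP1 (0.088 and 0.17), CD74 (0.11 and 0.20) and MCL1 (0.18 and 0.27). EGR1 turned with the spiked controls (0.068). Leaving out 1 replicate, CD14 ranged from -0.020 without replicate 545 to 0.56 without replicate 1717. The cause of these shifts was not tested. Low values near the negative controls limit FCER1A, CCL3, CCL4, IL21R, FAS, TNFRSF10C, BLNK, ARG2 and ICOSLG.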
